A study of Arabidopsis thaliana with 30 samples.

Results

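QQS (AT3G30720, QUA-QUINE STARCH) is a gene on chromosome 3 of Arabidopsis thaliana, examined here through every open-chromatin peak that overlapped the gene or the 2 kb to either side of it. Of 734458 peaks in 30 lists, 37 met this rule, and they came from 29 of the 30 libraries. QQS is an orphan gene, meaning that related genes are not recognised in other species, and it encodes a short protein that affects how leaf carbon is divided between starch and protein. Its protein binds NF-YC4, a subunit of the nuclear factor Y transcription factor. QQS expression differs between natural accessions, and its silencing is known to be tied to DNA methylation of repeat sequence next to the gene.

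Chromatin accessibility was measured by ATAC-seq, in which the transposase Tn5 cuts and tags open DNA in extracted nuclei. Each of 15 groups had 2 libraries, all of them Col-0 plants or mutants grown at 22 °C with 16 h light and 8 h dark. The mutant shoots, taken at 2 weeks like all shoots, were met1-9, hda6 ros1-4, hda6, gcn5 ros1-4, gcn5, sdg2-4 ros1-4, sdg2-4, nrpd1-3 ros1-4, nrpd1-3, drdd, rdd-2 and ros1-4. The Col-0 groups were root at 2 weeks, stem at 4 weeks and shoot at 2 weeks. As background, MET1 maintains CG methylation, ROS1 is a DNA demethylase that removes methylated cytosine, HDA6 is a histone deacetylase, GCN5 a histone acetyltransferase, SDG2 a histone H3K4 methyltransferase and NRPD1 the largest subunit of RNA polymerase IV, which makes the RNAs that guide new DNA methylation. The names rdd-2 and drdd are not spelled out in the labels. In the field they stand for plants lacking ROS1 together with other demethylases of its family. The labels do not say whether the libraries of a group came from separate plantings, so differences between them may be technical.

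The lists held 17315 to 38392 peaks. Depth is not given in them, and the level of background in fragments, recovered from the deposited fold and p-value of each peak, ran from 5.17 to 32.5 between libraries. The lowest fold at which a peak was listed over that background, taken as the detection limit, ran from 1.61 in gcn5 replicate 2, the library with the highest background, to 2.43 in ros1-4 replicate 2, the one with the lowest. Some facts on the groups touch the results below. The met1-9 libraries are shoot in the labels, while the peak names call them leaf. Peak names in the stem lists read as if data had been pooled or topped up. The numbers in the peak names of hda6, of hda6 ros1-4 and of Col-0 shoot lie in separate ranges. The labels name no batch and do not say what these numbers stand for. The Col-0 root and shoot labels held at marker genes. In root against shoot, 3 of 3 photosynthesis genes (LHCB2.1, LHCB1.3, GLK1) lost an element within 2 kb, where 12.5% of 25507 genes did. All 3 of 3 root genes (RHD6, PIN2, RSL4) gained one, where 27.5% of genes did. The stem label was not checked in this way, and the check does not settle whether met1-9 was shoot or leaf.

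To compare libraries, peaks were reduced to 301 bp elements centred on summits. Only elements with a peak in both libraries of some group were kept. This gave 42611 elements in the genome (TAIR10) and 3 at QQS. The lower-edge site, as it is called here, lay at chr3:12348790-12349090 and spanned the end of the gene that has the lower coordinate. The gene-body site lay inside the gene at chr3:12349544-12349844. The flank site lay beyond the other end at chr3:12350075-12350375. The strand of QQS is not in the gene table used here, so neither end is called its start. That table follows TAIR10.1 and gives QQS a length of 887 bp, and positions against the gene are given as distances from its lower end.

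**Figure D1:**
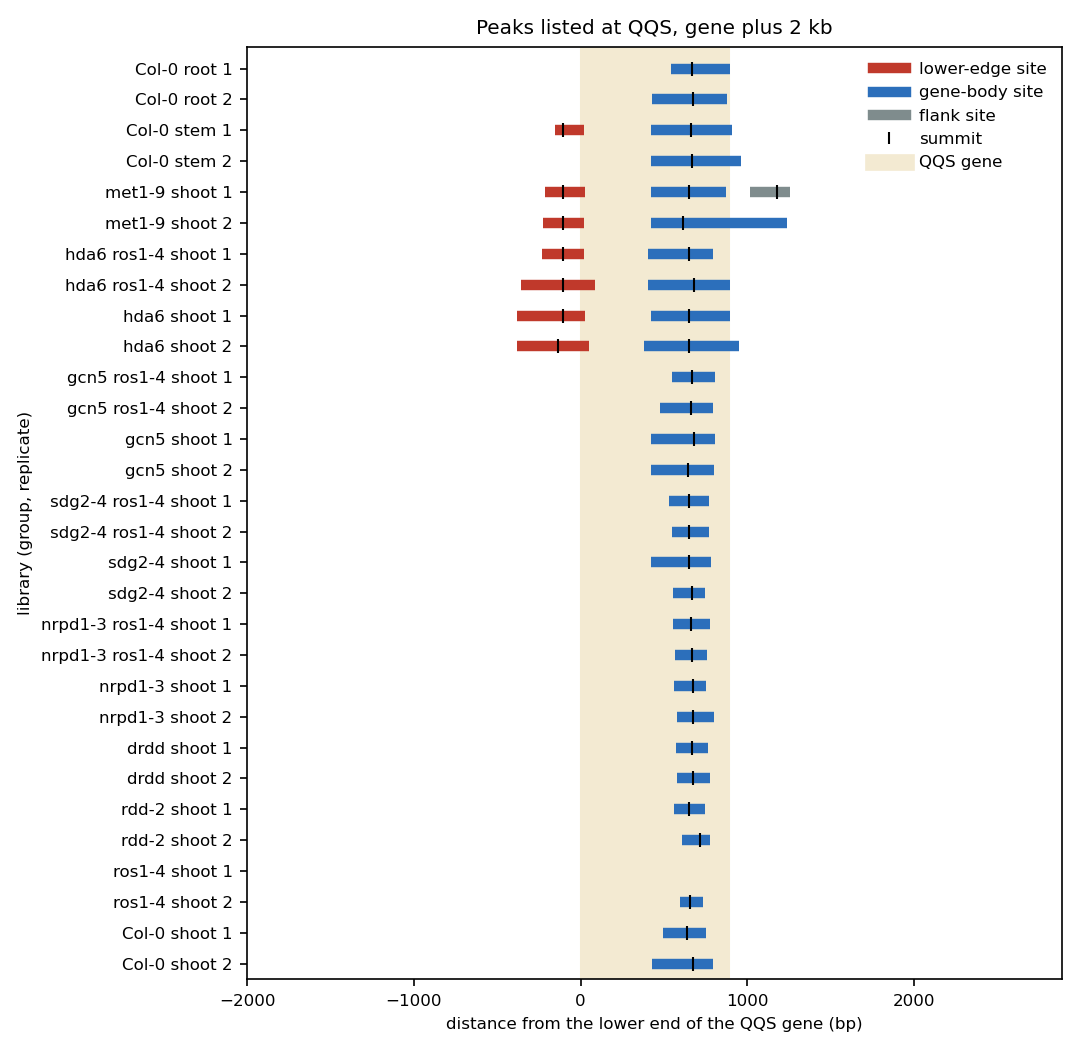
Each of the 37 peaks at QQS is drawn as a bar from its start to its end, with its summit as a tick, on an axis of distance in bp from the lower end of the gene, and each row is 1 library of 1 group. The gene-body peaks of 29 libraries line up, the lower-edge peaks appear in the met1-9, hda6 ros1-4 and hda6 rows and in 1 stem row, and the row of ros1-4 replicate 1 is empty.

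The gene-body site was the constant feature of QQS. A peak covered it in 29 of 30 libraries and in both libraries of 14 of 15 groups. Such wide presence was common: of 42611 elements in the genome, 12881 carried a peak in all 30 libraries. The 29 summits fell within 102 bp of each other, 614 to 716 bp from the lower end, which is 69.2% to 80.7% of the way along the gene. The peaks were 136 to 815 bp wide with a median of 318 bp, and their background was within 5% of the library's general background in 28 of 29 libraries. The fold deposited by the authors, which is the fragment pileup at the summit over the local background, had a median of 6.13 and ran from 2.85 to 16.1. The pileup itself ran from 25 to 313 fragments with a median of 66. Within its own list, the gene-body peak stood anywhere from the top 2.6% to the top 81.8% by fold, with a median of the top 30.3%.

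A fold describes a peak within its own list, so the folds are given as a description, and a ranking further on sets libraries side by side. In met1-9 shoots the fold was 16.1 and 10.5, with pileups of 313 and 150 fragments. In hda6 ros1-4 it was 14.2 and 12.1, and in hda6 10.0 and 6.77. The next folds were those of sdg2-4 ros1-4 at 7.95 and 9.14 and of gcn5 ros1-4 at 8.13 and 7.68, while gcn5 had 8.02 and 4.77 and sdg2-4 had 7.08 and 4.69. Root had 6.33 and 5.75, stem 5.46 and 5.75, nrpd1-3 ros1-4 5.27 and 6.19, and nrpd1-3 3.98 and 6.13. The met1-9 and hda6 ros1-4 values were the high end of this range.

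Low folds were listed in the demethylase mutants without a second chromatin mutation, but not only there. Single libraries of nrpd1-3 (3.98), sdg2-4 (4.69) and gcn5 (4.77) were also low, while the other libraries of these groups had 6.13, 7.08 and 8.02. The drdd libraries had 4.58 and 4.36, the rdd-2 libraries 3.74 and 2.85, and ros1-4 replicate 2 had 4.21 from a peak of 25 fragments, against 5.66 and 5.70 in Col-0 shoots with 42 and 53 fragments. In ros1-4 replicate 1 no QQS peak was listed. Its detection limit was 2.19, so an opening as strong as in Col-0 would have been above the limit, but a weaker one could have been missed.

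**Figure D2:**
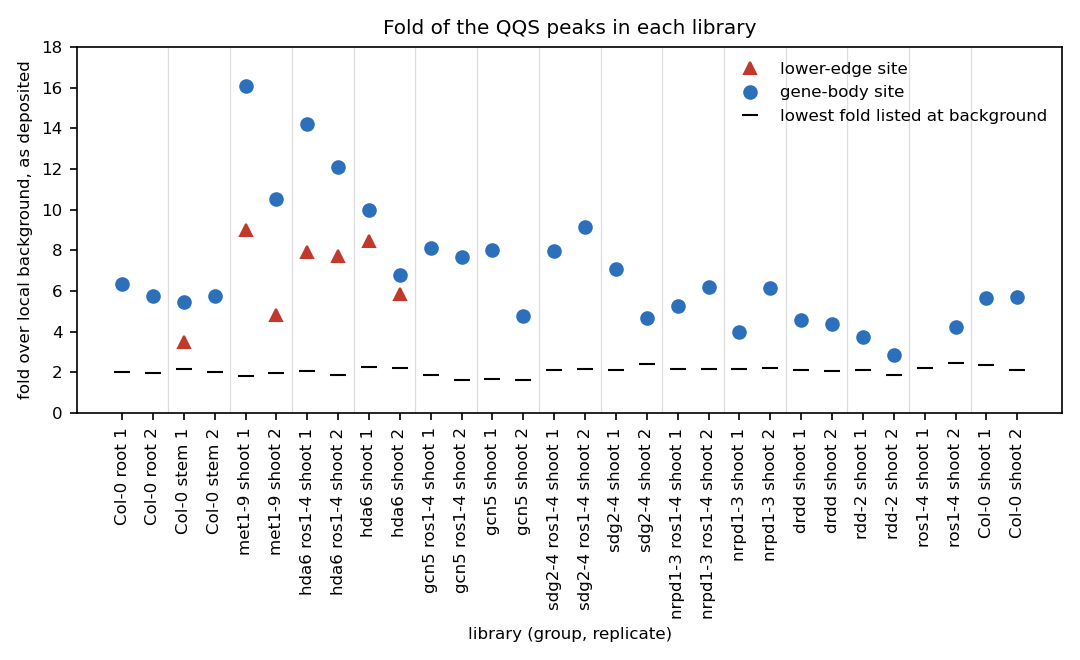
The fold over local background, as deposited, is plotted for the gene-body site (circles) and the lower-edge site (triangles) in each of 30 libraries, with the detection limit of the library as a dash. The gene-body circles run from 2.85 in rdd-2 replicate 2 to 16.1 in met1-9 replicate 1, and triangles are present in 7 libraries, from 3.50 to 9.00.

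For a scale shared by all libraries, the gene-body fold was ranked among the 12881 elements that carried a peak in all 30 libraries, with a library without the peak set to 0. The group means (± SD, n = 2 libraries each) put hda6 ros1-4 first, at percentile 85.8 ± 4.2, then met1-9 at 83.4 ± 13.7 and hda6 at 70.5 ± 8.9. Root stood at 60.4 ± 6.5 and stem at 58.6 ± 0.3. These groups overlapped their neighbours in the order, and a gap followed them.

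The middle of the order held sdg2-4 ros1-4 at 46.5 ± 9.1, Col-0 shoot at 41.8 ± 1.8, gcn5 ros1-4 at 41.3 ± 4.9, sdg2-4 at 35 ± 18.5, gcn5 at 34.2 ± 25.6, nrpd1-3 at 26.9 ± 22.2 and nrpd1-3 ros1-4 at 26 ± 8.3. Each of these overlapped its neighbour, and the libraries of gcn5 and of nrpd1-3 lay far apart. The lowest means were those of drdd at 12 ± 1.1, rdd-2 at 5.4 ± 5.7 and ros1-4 at 3.4 ± 4.9. The drdd libraries (12.8 and 11.2) did not overlap those of nrpd1-3 ros1-4 (20.1 and 31.9), but nrpd1-3 replicate 1 (11.2) lay within the drdd range. The rdd-2 and ros1-4 libraries overlapped each other and lay below both drdd libraries.

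The 6 libraries of drdd (12.8 and 11.2), rdd-2 (9.4 and 1.4) and ros1-4 (0.0 and 6.9) all ranked below both Col-0 shoot libraries, at 43 and 40.5. They were not alone in this: both nrpd1-3 ros1-4 libraries (20.1 and 31.9), nrpd1-3 replicate 1 (11.2), gcn5 replicate 2 (16.1), sdg2-4 replicate 2 (21.9), gcn5 ros1-4 replicate 2 (37.8) and sdg2-4 ros1-4 replicate 1 (40.1) were also below both. These comparisons share the Col-0 libraries and were singled out after the values were seen, and no test was made of them. The share of the 12881 ranked elements that place these libraries in the same order is not given here. With 2 libraries against 2, an exact permutation test cannot give a p-value below 0.333.

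**Figure D3:**
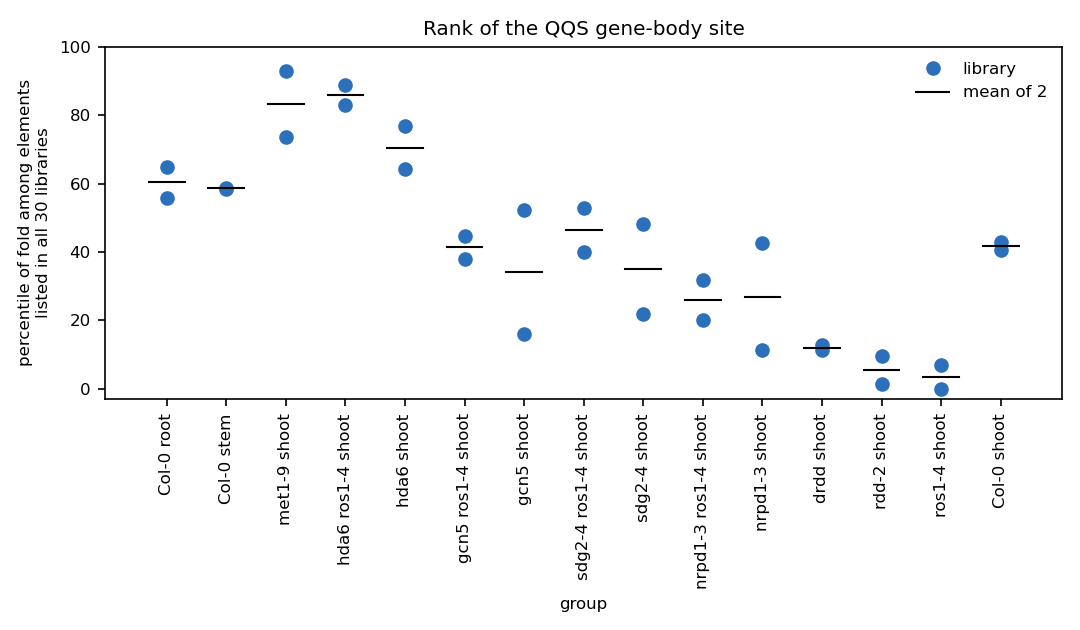
The percentile of the gene-body fold among elements listed in all 30 libraries is plotted for each library (circles) with the mean of the 2 libraries of a group (line). The hda6 ros1-4, met1-9 and hda6 libraries lie between 64.2 and 93.1, the Col-0 shoot libraries at 43 and 40.5, and the drdd, rdd-2 and ros1-4 libraries between 0.0 and 12.8.

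The series set ros1-4 against ROS1 in 5 backgrounds, which asks whether loss of the demethylase changes accessibility. At the gene-body site, 9 of 10 libraries carrying ros1-4 and 10 of 10 libraries without it had a peak, a difference in share of -0.1. With a single library lacking the peak, the exact permutation test within backgrounds can give no p other than 1.0. At the lower-edge site it was 2 of 10 against 2 of 10, and presence did not vary within any background, so there was nothing to test. The percentile of the gene-body site averaged 40.6 ± 29.0 in ros1-4 backgrounds and 41.7 ± 20.7 in the ROS1 backgrounds (SD, n = 10 each), a difference of -1.06 (exact permutation test, two-sided, p = 0.882, added after the data were seen). The smallest p-value that the test of the percentile can give is 0.000257.

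The differences did not have the same sign in all backgrounds. The percentile was lower by 38.3 in ros1-4 than in Col-0, with both ros1-4 libraries below both Col-0 libraries. It was higher by 15.4 in hda6 ros1-4 (88.8 and 82.9) than in hda6 (76.8 and 64.2), again without overlap. In the other pairs the libraries overlapped, with differences of 11.5 for sdg2-4 ros1-4 against sdg2-4, 7.1 for gcn5 ros1-4 against gcn5 and -0.9 for nrpd1-3 ros1-4 against nrpd1-3. Without the Col-0 pair the mean difference turned to 8.26 (exact permutation p = 0.233), and without the hda6 and sdg2-4 pairs it was -10.7 (exact permutation p = 0.296). Within a pair, full separation of 2 libraries from 2 gives p = 0.333 at best in an exact permutation test. The difference between backgrounds was not tested.

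The lower-edge site was open in few groups. It carried a peak in 7 libraries: both met1-9, both hda6 ros1-4, both hda6, and 1 of 2 Col-0 stem libraries. The 7 summits lay within 34 bp of each other, outside the gene, and the peaks ended 18 to 86 bp inside it. They were 179 to 447 bp wide, with a median of 252 bp.

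At this site the fold was 9.00 and 4.81 in met1-9, 7.91 and 7.70 in hda6 ros1-4, 8.45 and 5.86 in hda6 and 3.50 in stem replicate 1. The pileups were 175 and 68 fragments in met1-9, 79 and 106 in hda6 ros1-4, 78 and 44 in hda6 and 33 in stem replicate 1. All were 1.62 to 5.03 times the detection limit of their library. The other 23 libraries, both Col-0 shoot libraries among them, listed no peak there, with detection limits of 1.61 to 2.43. The lowest fold in the mutants, 4.81, was above all of those limits.

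Where both sites were open, the gene-body site was the stronger one in all 7 libraries. The lower-edge fold was 0.559 and 0.458 of the gene-body fold in met1-9, 0.557 and 0.636 in hda6 ros1-4, 0.845 and 0.866 in hda6 and 0.641 in stem replicate 1. The hda6 libraries were thus nearest to equal folds at both sites, and their ratios did not overlap those of the other groups. Between the end of the lower-edge peak and the start of the gene-body peak, 315 to 403 bp of the gene carried no peak in these libraries. The opening was therefore listed as separate intervals and not as one stretch over the gene.

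The edges of the gene-body peak also differed between libraries. Its starts were split at the widest gap between neighbouring values, 46 bp, a rule that always gives 2 sets. The starts lay 381 to 431 bp from the lower end in 13 libraries and 477 to 606 bp in 16 libraries. Whether they form separate clusters was not tested. All met1-9, hda6 ros1-4, hda6, gcn5 and stem libraries were in the first set. All gcn5 ros1-4, sdg2-4 ros1-4, nrpd1-3 ros1-4, nrpd1-3, drdd and rdd-2 libraries and the ros1-4 library with a peak were in the second. Root, sdg2-4 and Col-0 shoot had 1 library in each. Peaks covered 46.1% to 64.5% of the gene in the hda6 and hda6 ros1-4 libraries and 53.9% and 54.6% in met1-9. Such coverage was not limited to these mutants: Col-0 stem had 54.8% and 52.5%, and Col-0 root 39.1% and 50.7%. Col-0 shoots had 29.1% and 41.3%, and ros1-4 replicate 2 had 15.3%. The background level was 18.6 and 13.3 fragments in met1-9, 9.12 and 12.9 in hda6 ros1-4, 7.03 and 6.68 in hda6, 6.6 and 8.48 in Col-0 shoots and 5.17 in ros1-4 replicate 2, and the part of depth in these widths was not tested.

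The flank site was open in met1-9 only, among these libraries. Replicate 1 had a peak of its own there, 240 bp wide with a fold of 3.99 and a pileup of 77 fragments. In replicate 2 the site was covered by the far part of a peak 815 bp wide whose summit was in the gene body.

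An element was called gained when both libraries of the first group and neither of the second carried a peak, and lost in the reverse case. Over 25 comparisons and 3 QQS elements, 5 were gained and 0 were lost. In met1-9 against Col-0, the lower-edge and flank sites were gained, where 15.1% of all elements were. The flank site was kept as an element only through met1-9, so its peaks in both met1-9 libraries were fixed by that rule. The lower-edge site was gained in hda6 against Col-0 (3.25% of all elements), in hda6 ros1-4 against Col-0 (9.94%) and in hda6 ros1-4 against ros1-4 (7.38%). That site was likewise kept only through met1-9, hda6 ros1-4 and hda6, the groups in which it is called. The 21 comparisons without a call had 0.878% to 16.7% of all elements gained and 0.176% to 6.1% lost. Root, stem, gcn5, sdg2-4, nrpd1-3, drdd, rdd-2 and ros1-4 gave no call against Col-0 shoot.

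Some settings change these calls. When all lists were held to the 17315 strongest peaks, the met1-9 calls were no longer made and the hda6 calls remained. Under that setting, with a limit of 2 times the detection limit on the fold, or with 50% of an element to be covered, the gene-body site was called lost in ros1-4 against Col-0. With the fold limit it was called lost in rdd-2 against Col-0 as well. Without ros1-4 replicate 2 it was also called lost in ros1-4, since replicate 1 had no peak. The flank call was not made when a summit had to lie in the element.

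Presence at the lower-edge site was also compared between the groups with the hda6 mutation, hda6 ros1-4 and hda6, and their counterparts, ros1-4 and Col-0. All 4 libraries with hda6 and 0 of 4 libraries without it had a peak. The exact permutation test within the pairs gave p = 0.0556, the smallest that 36 arrangements allow, so this design cannot pass 0.05. This contrast was chosen after the data were seen. In met1-9 the same site was open in 2 of 2 libraries, and the difference between hda6 and met1-9 was not tested.

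The neighbourhood of QQS holds few other open sites. Within 20 kb the gene table lists 14 genes, of which 10 are pseudogenes, 1 is a long non-coding RNA and 3 encode proteins. The pseudogenes AT3G30722 and AT3G30724 are the nearest, 340 bp beyond the lower end and 445 bp beyond the upper end. The nearest protein-coding gene is GDU6, a member of the GLUTAMINE DUMPER family of amino acid export regulators, at 2538 bp. Protein-coding genes cover 3.48% of the gene with 50 kb to either side. Of the 14 other elements in that stretch, 0 were open in all libraries.

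In the 50 kb flanks the met1-9 libraries had 15 and 13 peaks, against 2 and 3 in Col-0 shoots, and the other groups had 1 to 4. On the side of lower coordinates met1-9 had 5 and 3 peaks, hda6 ros1-4 replicate 1 had 1, and all other libraries had 0. The lower-edge gain in met1-9 came with further peaks around the gene, while the hda6 libraries had 4 and 2 flank peaks, all on the upper side.

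Of the other elements, 4 lay within 20 kb, all beyond the upper end. An element near GDU6 was open in 20 libraries, with folds of 3.06 to 7.71. It was absent from both hda6 ros1-4, both drdd and both ros1-4 libraries and from 1 library each of hda6, rdd-2, root and Col-0 shoot. An element near AT3G30730 was open in 25 libraries. It was absent from both drdd libraries and from 1 library each of Col-0 stem, hda6 and rdd-2. A second one, 10.5 kb from the lower end of QQS, was open in 6 libraries, both nrpd1-3 and both nrpd1-3 ros1-4 among them, with 1 of 2 gcn5 and 1 of 2 sdg2-4 libraries. None of the met1-9, hda6 ros1-4 or hda6 libraries had it, so it was listed in other genotypes than the lower-edge site. An element near the pseudogene AT3G30733 was open in 29 libraries, with folds of 2.76 to 14.7.

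**Figure D4:**
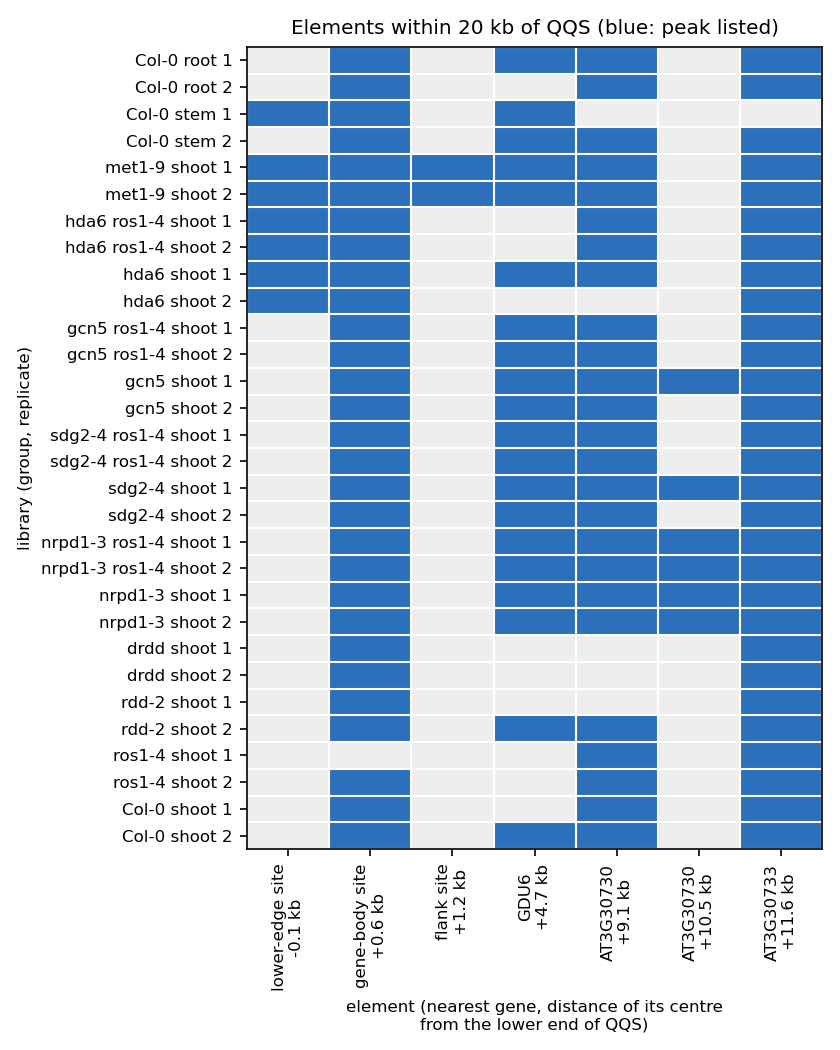
Each column is an element within 20 kb of QQS, named by its site at QQS or by its nearest gene and by the distance of its centre from the lower end of QQS in kb, each row is a library, and blue marks a listed peak. The lower-edge column is filled in 7 libraries, the gene-body column in 29, the flank column in the 2 met1-9 libraries, and the column at 10.5 kb in 6 libraries.

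Elements elsewhere in the genome were compared with the lower-edge site by counting the libraries in which they shared its presence or absence. No other element matched in 30 of 30 libraries, and 87 matched in 29. These 87 were open in both libraries of met1-9, hda6 ros1-4 and hda6 and in no other, so they lacked only the stem peak. Over the 26 shoot libraries 88 other elements matched in all, and with the lower-edge site they are 89 of 42611 elements, 0.209%.

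The 8 most like it, by correlation of within-list percentiles (0.97 to 0.98 over 30 libraries, which differ in depth), lay within 2 kb of AT2G06500, MYB93, AT5G35560, the pseudogene AT4G04600, AT5G27950, AT4G09355, AOS and AT1G36272. MYB93 is a transcription factor that restrains lateral root formation, and its element at chr1:12712322-12712622 had folds of 14.0 and 8.47 in hda6 and 9.31 and 4.46 in met1-9. AOS encodes allene oxide synthase of jasmonate synthesis, and its element at chr5:17095536-17095836 had 5.15 and 3.55 in hda6 and 6.57 and 4.11 in met1-9. The element near AT2G06500 had 12.7 and 7.95 in hda6 and 9.71 and 6.14 in met1-9. All 8 lay on chromosomes 1, 2, 4 and 5, away from QQS.

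Genes that DNA methylation is known to control were listed beside QQS, and 18 of 20 had an element within 2 kb. In met1-9 against Col-0, 7 of 18 (38.9%) gained an element and 0 lost one, where 26.9% of all genes gained and 1.79% lost one. FWA, a homeobox gene silenced by methylation outside the seed, gained an element with folds of 15.0 and 8.25, and SDC, an F-box gene silenced through tandem repeats, one with 8.95 and 8.44. Both elements were open in no other library, unlike the lower-edge site of QQS. The others included RMG1, an immune receptor gene, HDG9, FIS2 and AG.

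In hda6 against Col-0, 2 of 18 (11.1%) gained an element, RMG1 with folds of 6.48 and 6.12 and FIS2 with 5.86 and 4.17, and 0 lost one, where 7.5% of all genes gained and 4.5% lost one. In hda6 ros1-4 against ros1-4, 2 of 18 (11.1%) gained an element, RMG1 and HDG9, where 16.7% of genes did. In the same comparison 1 of 18 (5.56%) lost one, the histone demethylase gene IBM1, where 1.92% of genes did. The counts in both hda6 comparisons are near those of all genes.

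The partner of QQS and the starch genes were counted in the same way, and 27 of 27 had an element. In met1-9, 7 (25.9%) gained one and 0 lost one, close to the 26.9% of all genes. In hda6, 4 (14.8%) gained one, namely GBSS1, the granule-bound starch synthase, SS2, another starch synthase, PGM1, the plastid phosphoglucomutase, and BAM1, a beta-amylase. APL2, a subunit of ADP-glucose pyrophosphorylase, lost one. Over all genes in that comparison 7.5% gained and 4.5% lost one. The gained GBSS1 element had folds of 2.48 and 4.82 in hda6 and was open in 15 libraries. That of PGM1 had 3.74 and 3.13 and was open in 28 libraries, all but those of Col-0 shoot, the reference. The BAM1 elements were open in 25 and 24 libraries and the SS2 element in 20, so none of these was particular to hda6. In hda6 ros1-4 against ros1-4, 3 (11.1%) gained one, APL2, ISA3 and DPE1, and 0 lost one, where 16.7% of all genes gained and 1.92% lost one. NF-YC4 was not called in these comparisons.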

How the data were processed

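Nuclei were treated with Tn5, per the labels' protocols, and libraries sequenced on a NovaSeq X Plus. The submitters' processing notes name FastQC, BWA, SAMtools, GATK, MACS2 and the TAIR10 build, with no versions. Each deposited list holds 1 peak per line, called per library. Start, end and summit were deposited by the authors as coordinates. The score deposited by the authors is 10 times −log10 q, give or take 1, in every line, and the lowest deposited −log10 q was 2.0. The −log10 p values and the fold (a ratio of summit pileup to local background) are likewise the authors' own and describe peaks within their list.

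Fold and −log10 p were inverted through MACS2's Poisson model to whole-number pileups and backgrounds, and the most common background stood for depth, which is otherwise unknown. Peaks are not counts, so no count test was run. Elements were windows of 150 bp to either side of summits, merged greedily, and overlap by 1 bp counted as presence. Of 48484 windows, 42611 met the replicate rule stated in the Results and were kept. The exact permutation test used 7776 arrangements. Element building, calls and inversion were checked on simulated data. Gene positions came from a TAIR10.1 table: of 8260 chromosome 3 elements, 68.5% lay outside protein-coding genes unshifted, the highest at any shift tried, against 38.3% at the lowest. Named genes were QQS, genes within 20 kb, the 8 most alike elements and up to 6 genes with a call from each list in a comparison. AT3G48150, listed among methylation-controlled genes, is APC8 in that table. Members and lists were chosen with earlier results of these data known. Sequences are not used here. Python 3.11.15, numpy 2.4.6, pandas 2.3.3, scipy 1.17.1 and matplotlib 3.10.9 were used.

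Replicate numbers were checked by correlating deviations from group means across elements over 105 pairs of groups. The correlations ran from -0.285 to 0.314, with 9 above 0.1, so the numbers were not taken to pair libraries. Alternatives covered the window, overlap, threshold, list length, element width and libraries left out.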

Additional observations from a re-analysis of the deposited data

Results flagged for a closer look

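The percentile of the gene-body fold moved in opposite directions with ros1-4 in 2 backgrounds. It was -38.3 in ros1-4 against Col-0 shoots, with both libraries lower, and 15.4 in hda6 ros1-4 against hda6 shoots, with both libraries higher. In ros1-4 replicate 1 no peak was listed and its percentile was set to 0. Full separation of 2 libraries from 2 gives p = 0.333 at best in an exact permutation test. The difference between these backgrounds was not tested. The peak names of hda6 and hda6 ros1-4 carry numbers in separate ranges, and the labels do not say what these stand for.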

How the results depend on the processing

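A QQS peak was listed in 96.7% of libraries, and in 80.0% when its fold had to reach 2 times the detection limit. Leaving out 1 replicate of every group gave 93.3% to 100%. The 5 calls over 25 comparisons became 11 when 50% of an element had to be covered, 12 with the fold limit and 8 with lists of equal length, 3 of the 5 remaining in the last. The calls added under these settings were at the gene-body site. With the fold limit they included rdd-2 against Col-0 and drdd against rdd-2, and the others were comparisons with ros1-4. Leaving out 1 library gave 5 to 11, the highest without ros1-4 replicate 2 and 7 without stem replicate 2. With a replicate block, the percentile difference stayed at -1.06 (exact permutation p = 0.896), while presence at the gene-body site (-0.1) and the lower-edge site (0.0) could give no other p than without it. The hda6 contrast gave an exact permutation p of 0.125 with the block, so the block changed no call. The percentile difference reversed to 8.26 without the Col-0 pair and was -10.7 without the hda6 and sdg2-4 pairs, and leaving out replicate 1 or 2 gave -7.53 to 5.41. Which cause lies behind this was not tested. Of the 8 most alike elements, 7 were shared with those over shoot libraries. Depth limits what an absent peak shows, since detection limits differ between libraries.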
